A study of Mus musculus with 10 samples.

Results

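The transcription elongation machinery is the set of factors that hold RNA polymerase II shortly after it has started, release it, and keep it moving along the gene. Its genes were taken by symbol from a list of 37, of which 36 had a row in all 8 deposited files, out of 23553 genes and unnamed rows in all; Aff3 is not analysed here. Where a gene had several transcript rows, the row with the highest mean stood for it. The genes fall into 7 groups by the complex they belong to: P-TEFb and the 7SK particle (6 genes), the super elongation complex (9 with a row), SPT factors and histone chaperones (6), the PAF complex (5), the negative elongation factor NELF (4), CDK12/13 with their cyclin (3), and TFIIS with the histone methyltransferase Setd2 (3).

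RNA came from Neuro-2a cells, a mouse neuroblastoma line, after a small interfering RNA (siRNA) against Sfpq or, as the control, one directed at luciferase (Luc), which is absent from the mouse genome. Both groups hold 3 libraries of poly(A)-selected RNA and 1 library of RNA depleted of ribosomal RNA (rRNA-depleted). All 8 were reverse transfected with RNAiMAX in medium with 2% serum, which the labels call a differentiated condition, and the labels give the strain of all as C57BL/6+C57BL/6J+CBA. Every library is of this 1 cell line, and the labels do not say whether replicates came from separate cultures or how many siRNA sequences were used, so p-values reflect only how far these libraries scatter, part or all of which may be technical. The title of the series places Sfpq, a nuclear RNA-binding protein, in the transcriptional elongation of long neuronal genes, and the comparison below asks whether the RNAs of the elongation factors themselves differ when Sfpq is reduced.

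In animal cells, RNA polymerase II stops a short way into most genes, held by NELF and by DSIF, the pair of Supt4a and Supt5. P-TEFb, the kinase Cdk9 with a T-type cyclin, phosphorylates the polymerase, NELF and DSIF and so releases it; the 7SK RNA with Hexim1, Larp7 and Mepce keeps P-TEFb inactive, while the super elongation complex brings it to genes. The PAF complex, Supt6, histone chaperones, the kinases Cdk12 and Cdk13 and the cleavage factor TFIIS then act on the travelling polymerase. Neurons are known for very long genes, which the polymerase takes a long time to cross.

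The unit is RPKM, in which reads are divided by transcript length and by the size of the library, so levels of different genes can be set side by side per length, but the absolute read depth is unknown. Sfpq itself fell to 5.07 ± 1.27 RPKM in Sfpq siRNA libraries, against 63.5 ± 8.42 RPKM in Luc libraries (SD, n = 3 each; log2 fold change -3.54, SE 0.17, limma adjusted p = 1.56e-06). The depth of the poly(A) libraries relative to Luc replicate 1, read from the steps between low values, lay between 0.628 and 1.17 for Sfpq and between 1 and 1.28 for Luc, and was 2.65 for the Sfpq and 2.64 for the Luc rRNA-depleted library. Luc replicate 3 stood apart: across genes, which are not independent replicates, it correlated at 0.985 and 0.979 with the other Luc libraries, which correlated with each other at 0.996. Of 16 neuroblastoma markers, 13 averaged at least 1 RPKM over the poly(A) libraries, while Nefl and Nefm were at or near 0. Their summed level was 566 to 576 RPKM in Sfpq libraries and 689 to 764 RPKM in Luc libraries. Of the 13 tested, 3 rose (23.1%) and 7 fell (53.8%), against 21.3% and 18.6% of all genes tested. None of 7 fibroblast markers averaged 1 RPKM, and they summed to 0.793 to 1.23 RPKM in Sfpq libraries and 0.839 to 1.11 RPKM in Luc libraries. Of 7 Schwann and glial markers 1, Erbb3, averaged at least 1 RPKM; they summed to 2.96 to 3.7 RPKM in Sfpq libraries and 2.4 to 2.86 RPKM in Luc libraries, with Sox10 at 0 in all 6, and the 5 leukocyte markers with a row summed to at most 0.0512 RPKM in Sfpq libraries and 0.141 RPKM in Luc libraries. The part of the neuroblastoma markers' difference in the results below was not tested, and in bulk samples fewer cells of a kind and less RNA per cell cannot be told apart.

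Of the elongation genes, 9 rose and 1 fell after Sfpq siRNA. Of the 34 genes that averaged 0.5 RPKM or more in the 6 poly(A) libraries, 9 rose (26.5%), namely Ccnt2, Larp7, Mllt1, Eaf2, Supt6, Rtf1, Nelfb, Nelfe and Cdk12, and 1 fell (2.94%), Eaf1; 24 were not called. Over all 11727 genes tested, limma called 21.3% higher and 18.6% lower at a Benjamini-Hochberg adjusted p under 0.05, so the share of elongation genes that rose was near that of all genes and the share that fell was below it. Eaf2 passed the minimum only through the group where it was high, so its difference is in part fixed by the filter. Among the 33 elongation genes that averaged 0.5 RPKM or more in each group, 8 rose and 1 fell, against 20.8% and 18% of all genes so filtered. At an unadjusted p under 0.05, 26.9% of all genes tested were higher and 22.3% lower, against 11 and 1 of the 34 elongation genes. The median log2 fold change was 0.18 over the elongation genes and 0.05 over all genes, on the scale of log2(RPKM + 0.5), which understates the change of low genes. All 3 Sfpq libraries lay above all 3 Luc libraries for 12 elongation genes and below them for 1, against 28.2% above and 24.7% below over all genes. Without Luc replicate 3, 12 elongation genes rose, with Supt16, Cdc73 and Setd2 in addition (limma adjusted p = 0.0304, 0.00792 and 0.000993), and 2 fell, with Ell in addition (limma adjusted p = 0.0241); in the same fit 30.9% of all genes were higher and 22.5% lower, more than with all libraries. Without Luc replicate 2, 10 rose, with Mepce in addition (limma adjusted p = 0.0221), and 2 fell, with Mllt3 in addition (limma adjusted p = 0.0234), against 20% and 18.1% of all genes.

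The levels spanned a wide range per length. Ssrp1 and Tcea1 were the most abundant, at means of 101 and 69.7 RPKM in Sfpq libraries and 94.9 and 87.8 RPKM in Luc libraries. Ell2 and Ell3, paralogues of the super elongation complex subunit Ell, missed the minimum and were not tested. Ell2 had 0.36, 0.291 and 0.42 RPKM in the Sfpq libraries, against 0.147, 0.179 and 0.284 RPKM in the Luc libraries. Ell3 did not exceed 0.0785 RPKM in any poly(A) library and was listed at 0 in Luc replicate 1.

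**Figure D1:**
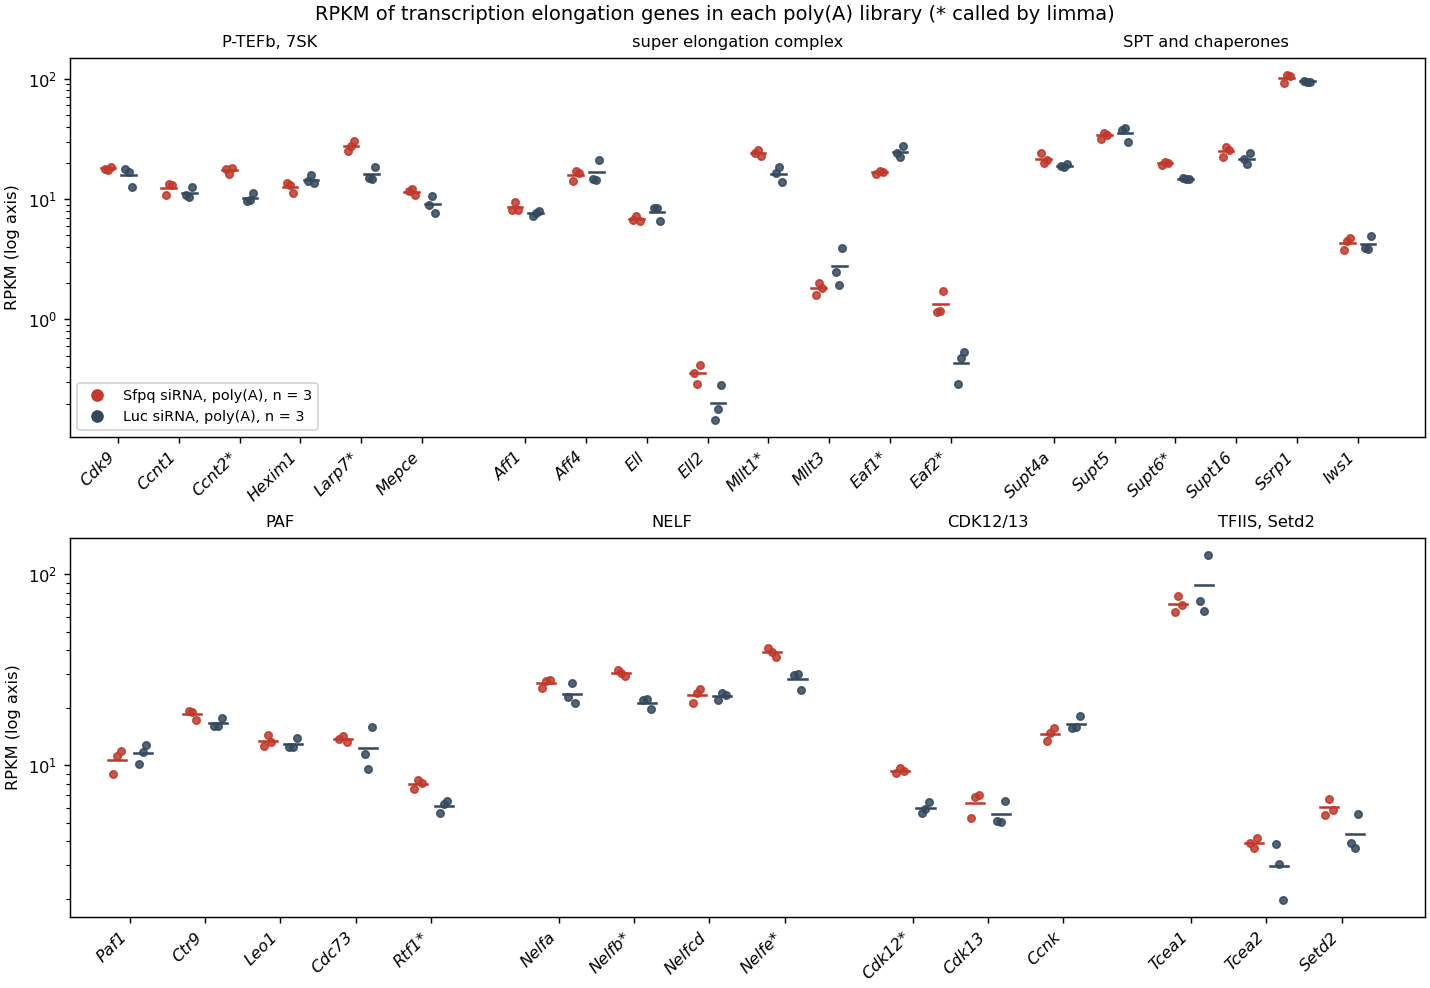
RPKM (log axis) of 35 elongation genes in the 3 Sfpq siRNA (left of each pair) and 3 Luc siRNA poly(A) libraries, grouped by complex; points are libraries, horizontal lines are means, an asterisk marks genes called by limma, and Ell3 is left out because it was listed at 0 in a library. Ccnt2, Larp7, Cdk12, Nelfb and Eaf2 show Sfpq libraries clear above the Luc libraries, Eaf1 shows them below, and Tcea1 shows 1 Luc library, replicate 3, at 126 RPKM far above the other two.

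Within P-TEFb, the cyclin Ccnt2 rose while the kinase and the other cyclin were not called. Ccnt2, one of the T-type cyclins that pair with Cdk9, had 17.8, 16 and 18.1 RPKM in the Sfpq libraries, against 9.59, 9.82 and 11.2 RPKM in the Luc libraries. The groups did not overlap (1.69-fold, log2 fold change 0.73, SE 0.11, limma adjusted p = 0.000767). Ccnt1, the other T-type cyclin, had 10.9, 13.3 and 13 RPKM in the Sfpq libraries, against 10.9, 10.4 and 12.5 RPKM in the Luc libraries. These groups overlapped, and the log2 fold change of 0.13 had a 95% confidence interval of -0.14 to 0.40 (limma adjusted p = 0.415). The kinase Cdk9 averaged 17.9 ± 0.553 RPKM in Sfpq libraries and 15.7 ± 2.75 RPKM in Luc libraries (SD, n = 3 each), where Luc replicate 3 was low at 12.6 RPKM (log2 fold change 0.19, limma adjusted p = 0.276; 0.05 on the log2 scale without that library).

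Of the 3 proteins of the 7SK particle, which holds P-TEFb inactive, 1 rose. Larp7, which binds the end of 7SK RNA and keeps it stable, had 25, 27.7 and 30.2 RPKM in the Sfpq libraries, against 14.9, 14.7 and 18.4 RPKM in the Luc libraries. Every Sfpq library lay above every Luc library (1.73-fold, log2 fold change 0.77, SE 0.12, limma adjusted p = 0.00113). Mepce, the methylase that caps 7SK RNA, had 11.6, 12.1 and 10.8 RPKM in the Sfpq libraries, against 8.96, 10.6 and 7.72 RPKM in the Luc libraries. The groups were also apart, but the adjusted p missed the threshold (log2 fold change 0.33, limma adjusted p = 0.0658). The log2 fold change was 0.44 without Luc replicate 2, where it was called (limma adjusted p = 0.0221), and 0.23 without Luc replicate 3, where it was not. Hexim1, the protein that inhibits the kinase when bound to 7SK RNA, averaged 12.7 ± 1.21 RPKM in Sfpq libraries and 14.5 ± 1.13 RPKM in Luc libraries (SD, n = 3 each; log2 fold change -0.19, limma adjusted p = 0.213). Over the 6 genes of P-TEFb and 7SK, 2 rose (33.3%) and 0 fell, against 21.3% and 18.6% of all genes. The median log2 fold change was 0.26. At an unadjusted p under 0.05, 3 were higher and 0 lower, against 26.9% and 22.3% of all genes.

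The promoters of Larp7, Ccnt2 and Ccnt1 are shown because Larp7 and Ccnt2 rose together and Ccnt1, the paralogue of Ccnt2, was not called. Each window runs from 250 bases before to 50 bases after the annotated start in RefSeq on build GRCm38.p6, 5′ to 3′ on the gene's strand; the reads had been aligned to another build, mm9. Larp7 lies at chr3:127553300-127553599 on the minus strand, Ccnt2 at chr1:127773914-127774213 on the plus strand and Ccnt1 at chr15:98567687-98567986 on the minus strand. Capitals mark matches, on either strand, to the GC box (GGGCGG), the CCAAT box (CCAAT), the cyclic AMP response element or CRE (TGACGTCA), the ETS motif (CCGGAAG), the E-box (CACGTG), the NRF1 core (GCATGCGC) and the TATA box (TATAAA).
Larp7: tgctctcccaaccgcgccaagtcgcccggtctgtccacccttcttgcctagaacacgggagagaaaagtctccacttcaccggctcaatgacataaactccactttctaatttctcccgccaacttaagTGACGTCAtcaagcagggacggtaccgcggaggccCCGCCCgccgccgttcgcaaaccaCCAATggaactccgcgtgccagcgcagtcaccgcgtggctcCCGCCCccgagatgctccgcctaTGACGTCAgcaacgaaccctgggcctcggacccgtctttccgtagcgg
Ccnt2: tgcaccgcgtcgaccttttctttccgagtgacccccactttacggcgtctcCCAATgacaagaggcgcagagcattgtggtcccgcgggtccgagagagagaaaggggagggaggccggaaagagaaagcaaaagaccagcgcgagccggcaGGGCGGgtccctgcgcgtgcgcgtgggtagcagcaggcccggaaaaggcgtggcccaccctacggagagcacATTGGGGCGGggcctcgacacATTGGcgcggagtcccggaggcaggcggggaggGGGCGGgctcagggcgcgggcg
Ccnt1: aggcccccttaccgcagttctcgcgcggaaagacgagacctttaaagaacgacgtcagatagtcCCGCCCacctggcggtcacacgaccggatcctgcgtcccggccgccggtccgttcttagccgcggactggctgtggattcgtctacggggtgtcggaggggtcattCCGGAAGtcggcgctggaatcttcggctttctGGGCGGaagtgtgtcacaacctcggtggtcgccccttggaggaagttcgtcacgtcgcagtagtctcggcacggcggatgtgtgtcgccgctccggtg
The Larp7 window held 2 CREs, 2 GC boxes and 1 CCAAT box. Of 32851 mouse promoter windows of this length, 1.79% held a CRE and 13 (0.0396%) held at least 2. The share with at least 2 was counted for the CRE alone, so repeats of the other motifs have no such background. Whether any motif has a part in the differences was not tested. The Ccnt2 window held 3 GC boxes and 3 CCAAT boxes, of which 1 overlaps a GC box, whereas the Ccnt1 window held 2 GC boxes, 1 ETS motif and no CCAAT box. Of all windows, 35.7% held a GC box, 37.4% a CCAAT box, 8.86% an ETS motif, 7.15% an E-box, 2.71% an NRF1 core and 13.6% a TATA box. Windows were found for 29 elongation genes, of which 25 had exactly 1. Among the 7 that rose and had 1 window, 6 held a GC box, 3 a CCAAT box, 1 a CRE and 2 an ETS motif; among the 15 not called, 14 held a GC box, 4 a CCAAT box, 0 a CRE and 5 an ETS motif. A match describes the letters in this window and is not a measured binding site.

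The super elongation complex had genes called in both directions, at shares near those of all genes. It joins P-TEFb to a scaffold of the AFF family, an ELL factor that speeds up the polymerase, an ELL-associated factor (Eaf1 or Eaf2) and a chromatin reader, Mllt1 or Mllt3. Of 7 tested, 2 rose (28.6%) and 1 fell (14.3%), against 21.3% and 18.6% of all genes, with a median log2 fold change of -0.06. Eaf1 had 16, 17 and 16.9 RPKM in the Sfpq libraries, against 24.2, 22.4 and 27.8 RPKM in the Luc libraries. All Sfpq libraries were below all Luc libraries, and Eaf1 fell by 0.56 on the log2 scale (SE 0.11, limma adjusted p = 0.00346).

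Its paralogue Eaf2, present at a much lower level, rose. Eaf2 had 1.15, 1.18 and 1.73 RPKM in the Sfpq libraries, against 0.292, 0.48 and 0.54 RPKM in the Luc libraries. The lowest Sfpq library was above the highest Luc library, the Luc mean of 0.437 RPKM lay under the minimum for testing, and the ratio of the means was 3.09-fold (log2 fold change 0.98, SE 0.17, limma adjusted p = 0.00161). Mllt1, a reader of acetylated or crotonylated histones, had 24.2, 25.3 and 22.8 RPKM in the Sfpq libraries, against 16.4, 18.6 and 13.8 RPKM in the Luc libraries. It rose without overlap (1.49-fold, log2 fold change 0.57, SE 0.12, limma adjusted p = 0.00595). Its paralogue Mllt3 had 1.59, 2.02 and 1.84 RPKM in the Sfpq libraries, against 2.47, 1.93 and 3.93 RPKM in the Luc libraries. The groups overlapped through Luc replicate 2, and the log2 fold change of -0.46 had a 95% confidence interval of -0.92 to 0.00 (limma adjusted p = 0.103); without Luc replicate 2 it was -0.65 (limma adjusted p = 0.0234), and without Luc replicate 3, the high library, it was -0.22 and not called.

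The scaffolds and Ell were not called. Aff1 averaged 8.55 ± 0.74 RPKM in Sfpq libraries and 7.61 ± 0.383 RPKM in Luc libraries, with all Sfpq libraries above all Luc libraries (SD, n = 3 each; log2 fold change 0.16, limma adjusted p = 0.279). Aff4, the main scaffold of the complex, averaged 15.9 ± 1.52 RPKM in Sfpq libraries and 16.8 ± 3.8 RPKM in Luc libraries (SD, n = 3 each; log2 fold change -0.06, limma adjusted p = 0.783). Its Luc spread rested on replicate 3 at 21.2 RPKM, and without that library the log2 fold change was 0.11. Ell averaged 6.84 ± 0.34 RPKM in Sfpq libraries and 7.8 ± 1.1 RPKM in Luc libraries (SD, n = 3 each; log2 fold change -0.17, limma adjusted p = 0.309), with Luc replicate 3 low at 6.53 RPKM; without that library it was called lower (log2 fold change -0.28, limma adjusted p = 0.0241), and without either other Luc library it was -0.11 and not called.

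NELF had 2 of its 4 subunits called, both higher, where 21.3% of all genes tested were called higher and 18.6% lower. The median log2 fold change over the 4 was 0.33. Nelfb, a core subunit, had 31.7, 30.6 and 29.4 RPKM in the Sfpq libraries, against 21.9, 22.2 and 19.7 RPKM in the Luc libraries. The gap between the groups was wider than the spread within either (1.44-fold, log2 fold change 0.52, SE 0.10, limma adjusted p = 0.00293). Nelfe, the subunit with the RNA recognition motif, had 41.2, 39.1 and 36.7 RPKM in the Sfpq libraries, against 29.8, 30.1 and 24.9 RPKM in the Luc libraries. These did not overlap either (1.38-fold, log2 fold change 0.46, SE 0.11, limma adjusted p = 0.00902). Nelfa, which binds the polymerase, averaged 27 ± 1.37 RPKM in Sfpq libraries and 23.6 ± 3.03 RPKM in Luc libraries (SD, n = 3 each; log2 fold change 0.20, limma adjusted p = 0.201). Nelfcd, the remaining subunit, averaged 23.4 ± 1.92 RPKM in Sfpq libraries and 23.1 ± 0.965 RPKM in Luc libraries, and its log2 fold change of 0.02 had a 95% confidence interval of -0.21 to 0.25 (n = 3 each; limma adjusted p = 0.908).

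Neither DSIF gene was called. Supt5, the large DSIF subunit, had 31.6, 35.3 and 34.3 RPKM in the Sfpq libraries, against 37.4, 38.6 and 29.7 RPKM in the Luc libraries (log2 fold change -0.06, 95% confidence interval -0.33 to 0.22, limma adjusted p = 0.740). Supt4a, the small subunit, averaged 21.6 ± 2.2 RPKM in Sfpq libraries and 19 ± 0.634 RPKM in Luc libraries, with the groups apart (SD, n = 3 each; log2 fold change 0.18, limma adjusted p = 0.202). Of the 6 SPT factors and chaperones, 1 rose (16.7%) and 0 fell, against 21.3% and 18.6% of all genes. The gene that rose was Supt6, a histone chaperone that binds the elongating polymerase. It had 19.2, 20.4 and 19.9 RPKM in the Sfpq libraries, against 14.9, 14.6 and 14.7 RPKM in the Luc libraries. Both groups were tight and apart (1.34-fold, log2 fold change 0.41, SE 0.09, limma adjusted p = 0.00692).

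The FACT chaperone, made of Supt16 and Ssrp1, opens nucleosomes ahead of the polymerase. Supt16 averaged 25.1 ± 2.42 RPKM in Sfpq libraries and 21.7 ± 2.26 RPKM in Luc libraries (SD, n = 3 each; log2 fold change 0.21, limma adjusted p = 0.190); without Luc replicate 3 it was called higher (log2 fold change 0.28, limma adjusted p = 0.0304), and over the 6 fits that each left out a library the log2 fold change ran from 0.14 to 0.28. Ssrp1 had 92, 107 and 105 RPKM in the Sfpq libraries, against 96, 94.4 and 94.2 RPKM in the Luc libraries, which overlap (log2 fold change 0.09, limma adjusted p = 0.485). Iws1, the partner of Supt6, averaged 4.32 ± 0.51 RPKM in Sfpq libraries and 4.22 ± 0.586 RPKM in Luc libraries (SD, n = 3 each), and its log2 fold change of 0.03 had a 95% confidence interval of -0.27 to 0.34 (limma adjusted p = 0.866).

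The PAF complex travels with the polymerase and is needed for histone marks of active genes. Of its 5 genes 1 rose (20%) and 0 fell, near the 21.3% of all genes called higher and below the 18.6% called lower. Rtf1, the subunit that promotes histone H2B ubiquitylation, had 7.5, 8.37 and 8.1 RPKM in the Sfpq libraries, against 5.65, 6.27 and 6.54 RPKM in the Luc libraries. The groups did not overlap (1.3-fold, log2 fold change 0.35, SE 0.11, limma adjusted p = 0.0283), but the call was lost when Luc replicate 1, or Sfpq replicate 2 or 3, was left out (limma adjusted p = 0.130, 0.122 and 0.107). Ctr9, the scaffold of the complex, averaged 18.5 ± 1.09 RPKM in Sfpq libraries and 16.6 ± 0.886 RPKM in Luc libraries (SD, n = 3 each; log2 fold change 0.15, limma adjusted p = 0.248). Cdc73, the tumour suppressor parafibromin, had 13.7, 14.2 and 13.3 RPKM in the Sfpq libraries, against 11.5, 9.58 and 15.8 RPKM in the Luc libraries (log2 fold change 0.19, limma adjusted p = 0.387). Luc replicate 3 was the high one, and without it Cdc73 was called higher (log2 fold change 0.38, limma adjusted p = 0.00792); without Luc replicate 2, the low one, it was 0.03 and not called. Leo1 and Paf1, the other genes listed for the complex, had log2 fold changes of 0.05 and -0.11 (limma adjusted p = 0.730 and 0.534), and their groups overlapped.

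Of the kinases that phosphorylate the tail of the polymerase during elongation, Cdk12 rose and Cdk13 was not called. Cdk12 had 9.16, 9.64 and 9.29 RPKM in the Sfpq libraries, against 5.61, 5.88 and 6.4 RPKM in the Luc libraries. The Sfpq libraries were close together and all above the Luc libraries (1.57-fold, log2 fold change 0.61, SE 0.10, limma adjusted p = 0.00159). Cdk13 had 5.32, 6.8 and 6.97 RPKM in the Sfpq libraries, against 5.11, 5.08 and 6.53 RPKM in the Luc libraries. They overlapped, and the log2 fold change of 0.18 had a 95% confidence interval of -0.15 to 0.50 (limma adjusted p = 0.359). Ccnk, the cyclin of both kinases, averaged 14.6 ± 1.13 RPKM in Sfpq libraries and 16.5 ± 1.35 RPKM in Luc libraries (SD, n = 3 each; log2 fold change -0.17, limma adjusted p = 0.233).

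The promoters of both kinases are shown for the same contrast, a called and an uncalled paralogue, with matches to the same motifs in capitals. The Cdk12 window lies at chr11:98203055-98203354 on the plus strand and the Cdk13 window at chr13:17805048-17805347 on the minus strand (RefSeq, GRCm38.p6).
Cdk12: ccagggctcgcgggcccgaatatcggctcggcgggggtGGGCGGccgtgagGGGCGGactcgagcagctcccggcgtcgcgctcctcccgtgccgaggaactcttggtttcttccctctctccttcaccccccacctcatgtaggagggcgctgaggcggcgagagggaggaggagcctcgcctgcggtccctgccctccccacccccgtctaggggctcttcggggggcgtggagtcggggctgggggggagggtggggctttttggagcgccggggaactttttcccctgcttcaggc
Cdk13: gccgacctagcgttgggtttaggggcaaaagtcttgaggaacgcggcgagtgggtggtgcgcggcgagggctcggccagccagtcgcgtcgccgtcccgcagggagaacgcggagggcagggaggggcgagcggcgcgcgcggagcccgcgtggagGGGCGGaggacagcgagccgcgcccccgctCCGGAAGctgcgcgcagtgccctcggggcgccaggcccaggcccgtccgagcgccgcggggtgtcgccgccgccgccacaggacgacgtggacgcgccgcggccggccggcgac
The Cdk12 window held 2 GC boxes. The Cdk13 window held 1 GC box and 1 ETS motif.

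TFIIS restarts a polymerase that has slid backwards by having it cut the RNA, and Setd2 methylates histone H3 behind the moving polymerase. None of these 3 genes was called by limma; at an unadjusted p under 0.05, 1 (Setd2) was higher and 0 lower, against 26.9% and 22.3% of all genes. Setd2 had 5.51, 6.67 and 5.87 RPKM in the Sfpq libraries, against 3.9, 3.7 and 5.56 RPKM in the Luc libraries. Only Luc replicate 3 reached the range of the Sfpq libraries (log2 fold change 0.43, limma adjusted p = 0.0525), and without it Setd2 was called higher (log2 fold change 0.60, limma adjusted p = 0.000993), while leaving out any other library gave 0.33 to 0.49 and no call. Tcea1, the broadly expressed TFIIS, had 63.5, 76.6 and 69.1 RPKM in the Sfpq libraries, against 72.7, 64.6 and 126 RPKM in the Luc libraries (log2 fold change -0.27, limma adjusted p = 0.350). The log2 fold change was 0.02 without Luc replicate 3, the high library. Tcea2, a TFIIS form of more restricted expression, averaged 3.91 ± 0.236 RPKM in Sfpq libraries and 2.97 ± 0.95 RPKM in Luc libraries (SD, n = 3 each; log2 fold change 0.38, limma adjusted p = 0.137); without Luc replicate 1 it was called higher (log2 fold change 0.57, limma adjusted p = 0.0410), and without Luc replicate 3 it was 0.16 and not called.

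**Figure D2:**
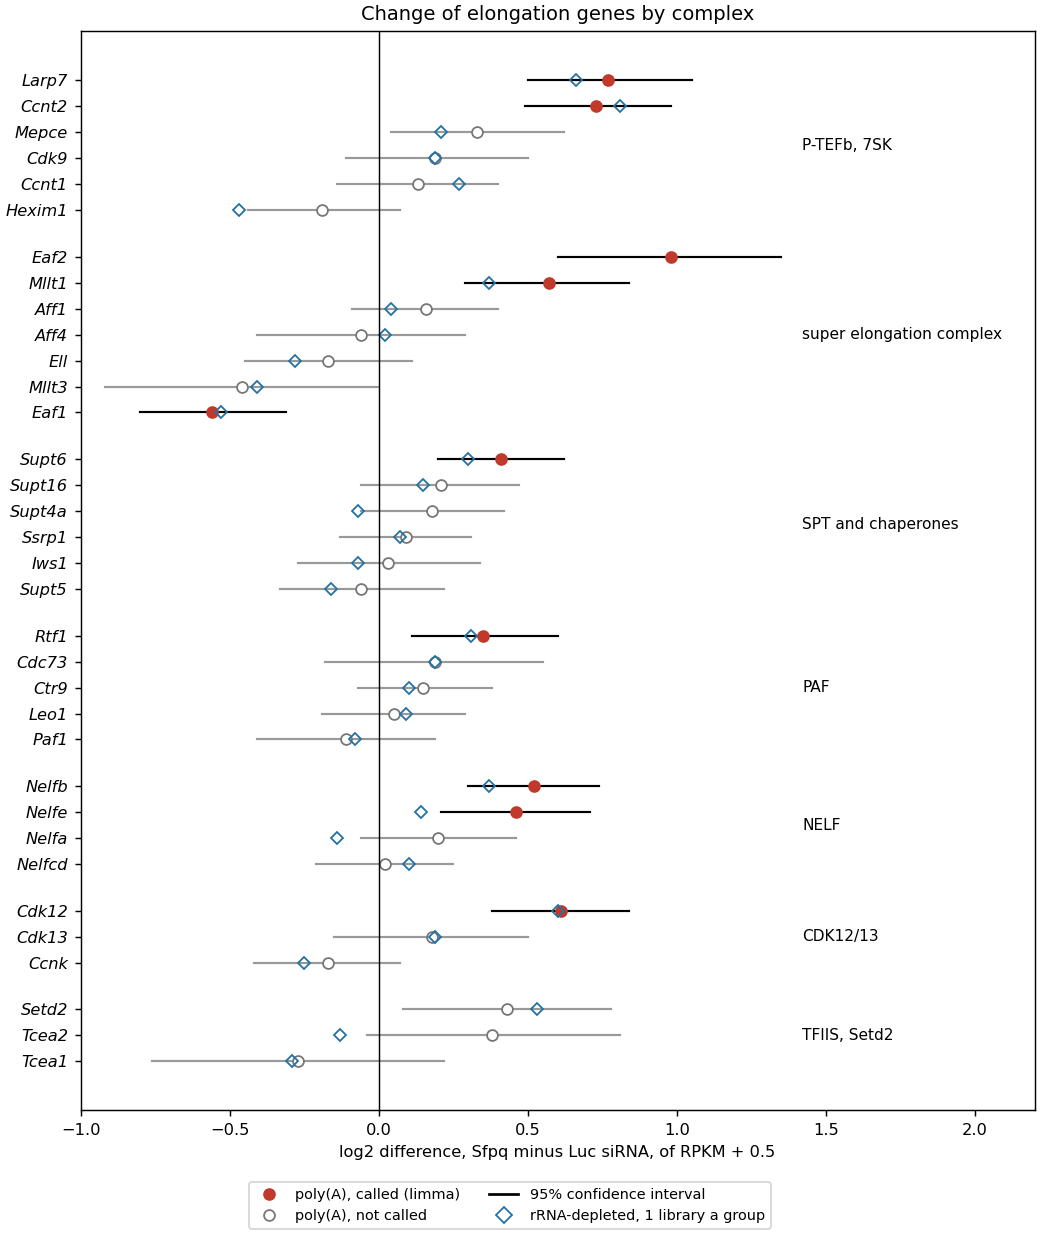
Log2 difference of RPKM + 0.5, Sfpq minus Luc siRNA, for the 34 tested elongation genes by complex: filled and open circles are poly(A) RNA (called and not called by limma, with 95% confidence intervals), and diamonds are the rRNA-depleted pair of libraries, without replicates. Called genes run from Eaf1 at -0.56 to Eaf2 at 0.98, and most diamonds lie within the interval of the same gene.

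The rRNA-depleted libraries, which also hold RNA without a poly(A) tail, gave similar differences for most of these genes, without replicates and therefore without a test. Of 33 elongation genes with at least 0.5 RPKM on average, 3 were at least 1.5-fold higher in the Sfpq library and 0 at least 1.5-fold lower, against 7.86% and 13.3% of all 11386 genes. Ccnt2 had 13.7 RPKM in the Sfpq and 7.55 RPKM in the Luc library (log2 ratio 0.81). Larp7 had 15.3 RPKM in the Sfpq and 9.51 RPKM in the Luc library (log2 ratio 0.66), and Cdk12 had 15.1 RPKM in the Sfpq and 9.81 RPKM in the Luc library (log2 ratio 0.60). All 3 had also been called higher in poly(A) RNA.

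The differences of the other called genes had the same sign in both kinds of RNA wherever both were measured. The 8 genes that rose in poly(A) RNA and were measured in both were all higher in the rRNA-depleted Sfpq library, as were 2316 of the 2351 such genes overall (98.5%). Eaf1, the one that fell, had 7.98 RPKM in the Sfpq and 11.7 RPKM in the Luc library. Eaf2 stayed under the minimum there, at 0.569 RPKM in the Sfpq and 0.199 RPKM in the Luc library. The inhibitor Hexim1, not called in poly(A) RNA, had 7.63 RPKM in the Sfpq and 10.8 RPKM in the Luc library (log2 ratio -0.47), the most negative after Eaf1 (-0.53). Across the 33 genes, which share the 8 libraries, the differences in both kinds of RNA correlated at Pearson r = 0.90, and across 11208 genes at 0.94.

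The level of an elongation gene also differed between the kinds of RNA, to an extent that varied by gene. In Luc cells the rRNA-depleted RPKM was below the poly(A) mean for most of them, with a median log2 ratio of -0.52, near the -0.45 of all genes tested. Nelfb stood lowest, at 1.78 RPKM in the rRNA-depleted Luc library and a mean of 21.3 RPKM in the poly(A) Luc libraries, a ratio of 0.0839. Cdc73 and Cdk9 followed, at ratios of 0.204 and 0.223. Cdk12, Aff1 and Ccnt1 lay on the other side, with ratios of 1.64, 1.51 and 1.38. The kinds of RNA were prepared with different kits and the rRNA-depleted value is of 1 library, so the preparation and the RNA cannot be told apart.

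**Figure D3:**
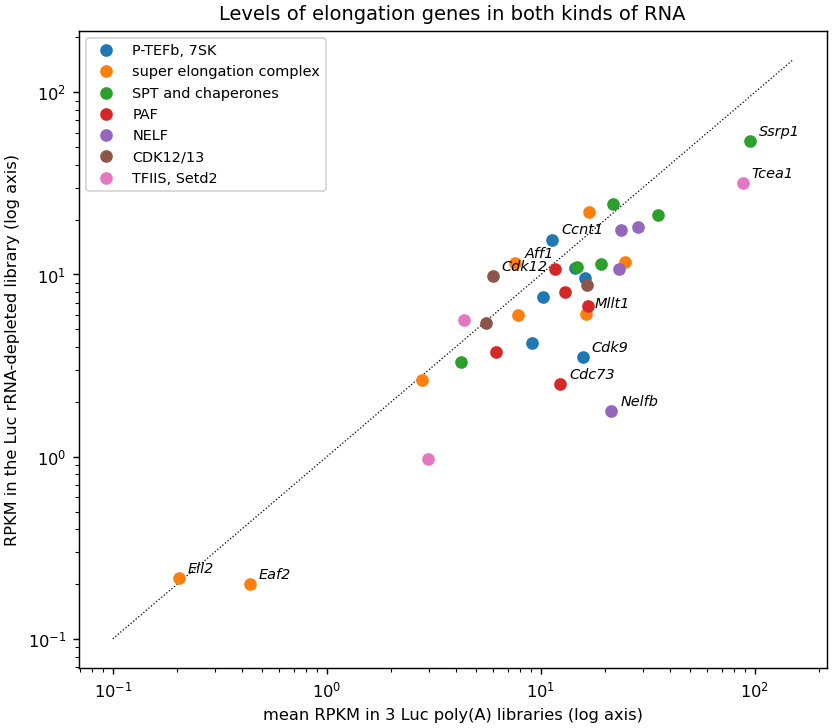
RPKM in the Luc rRNA-depleted library (vertical, log axis) against the mean RPKM of the 3 Luc poly(A) libraries (horizontal, log axis) for 35 elongation genes, coloured by complex, with a dotted line of equal values; Ell3 is left out because it was listed at 0. Nelfb, Cdc73 and Cdk9 lie farthest under the line, and Cdk12, Aff1 and Ccnt1 above it.

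Because many elongation factors come as paralogues that take the same place in a complex, the balance within each of 7 pairs was read inside every library, where the scaling of the library drops out. The pairs were described without a test. Where a gene of a pair had been called, the same poly(A) libraries gave the call and the ratio, so the shift is no separate evidence. Ccnt2 made up 54.5% to 62.1% of the summed RPKM of Ccnt2 and Ccnt1 in Sfpq libraries and 46.8% to 48.5% in Luc libraries. The log2 ratio of Ccnt2 to Ccnt1 averaged 0.48 ± 0.22 in Sfpq libraries and -0.14 ± 0.05 in Luc libraries (SD, n = 3 each), so the more abundant T-type cyclin per length was Ccnt2 in all 3 Sfpq libraries and Ccnt1 in all 3 Luc libraries. In rRNA-depleted RNA this ratio was lower in both groups but differed by a like amount, at -0.46 in the Sfpq and -1.04 in the Luc library. There Ccnt1 was the more abundant per length in both libraries.

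The kinase pair and the chromatin readers shifted towards the paralogue that rose. That direction was largely fixed by the calls of Cdk12 and Mllt1 in the same libraries. The log2 ratio of Cdk13 to Cdk12 averaged -0.57 ± 0.19 in Sfpq libraries and -0.11 ± 0.12 in Luc libraries (SD, n = 3 each). That of Mllt3 to Mllt1 averaged -3.74 ± 0.16 in Sfpq libraries and -2.60 ± 0.74 in Luc libraries (SD, n = 3 each), a difference of -1.14 that was -0.74 without Luc replicate 3. The largest of the 7 differences was in the Eaf pair, of which Eaf2 had Luc values under 1 RPKM. The log2 ratio of Eaf2 to Eaf1 averaged -3.65 ± 0.31 in Sfpq libraries and -5.87 ± 0.44 in Luc libraries (SD, n = 3 each), a difference of 2.22, with Eaf1 the more abundant in every library; Eaf2 made up 6.48% to 9.29% of their sum in Sfpq libraries and 1.19% to 2.1% in Luc libraries. In rRNA-depleted RNA the ratio of Eaf2 to Eaf1 was -3.81 in the Sfpq and -5.88 in the Luc library. For Ell2 to Ell, Aff1 to Aff4 and Tcea2 to Tcea1 the groups overlapped, with differences of 1.03, 0.23 and 0.72. Without Luc replicate 3 the last 2 were 0.08 and 0.16. The ratio of Ell2 to Ell, where Ell2 was too low to be tested, overlapped only through Luc replicate 3. It was -4.21, -4.63 and -3.98 in the Sfpq libraries, against -5.85, -5.55 and -4.52 in the Luc libraries.

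**Figure D4:**
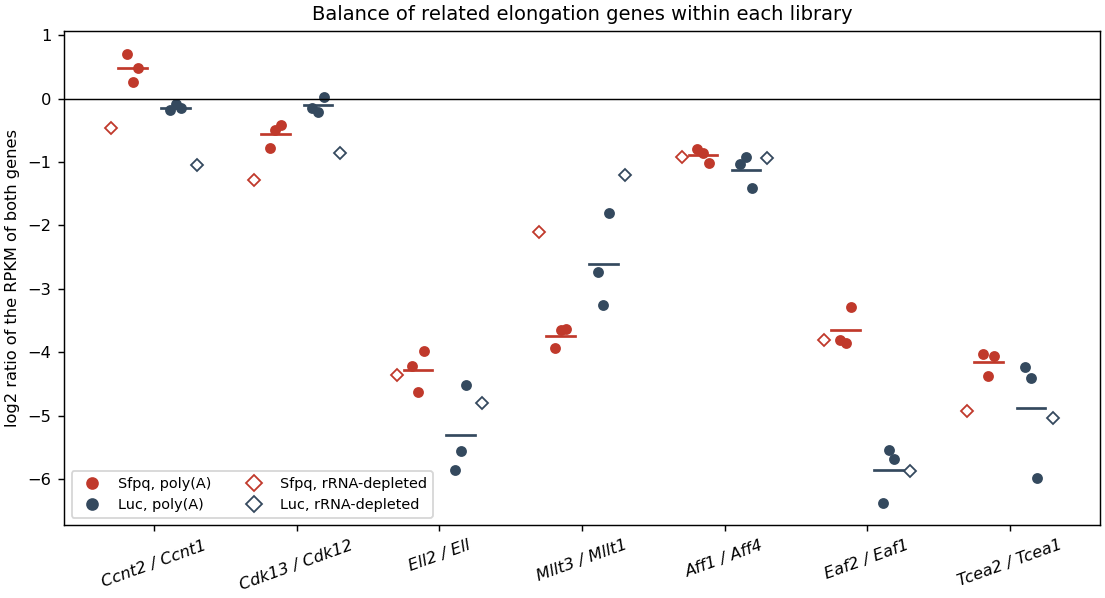
Log2 ratio of the RPKM of both genes of 7 paralogue pairs in each library, with Sfpq siRNA left of Luc siRNA: filled circles are poly(A) libraries with their mean as a line, open diamonds the rRNA-depleted libraries, and the line at 0 marks equal levels. Ccnt2 to Ccnt1 lies above 0 in the 3 Sfpq and below 0 in the 3 Luc poly(A) libraries, and below 0 in both rRNA-depleted libraries. Eaf2 to Eaf1 differs by 2.22 between the groups in poly(A) RNA.

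Of the 36 genes, 8 had more than 1 transcript row. Over 16793 transcript rows tested alone, limma called 21.6% higher and 19.3% lower; of the 47 rows of elongation genes that were tested, 16 were higher and 2 lower. All 3 rows of Cdk12, of Eaf2 and of Nelfe were higher. The rows of Eaf2 passed the minimum only through the Sfpq libraries, so their difference is in part fixed by the filter. Mllt3 was the single gene whose rows were called in different ways: NM_001286158 was lower (log2 fold change -0.53, limma adjusted p = 0.0340 over rows), while NM_029931 and NM_027326 had log2 fold changes of -0.50 and -0.46 and were not called (limma adjusted p = 0.0550 and 0.0978 over rows). Rows of a gene share reads and are not independent. Without Luc replicate 2, 4 rows were lower, and without Luc replicate 1, Sfpq replicate 1, 2 or 3, 1 was.

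Other gene lists of the same machinery gave a comparison by counts. At an unadjusted p under 0.05, 6 of 15 other elongation factors tested were higher and 0 lower, against 26.9% and 22.3% of all genes. By adjusted p also 6 rose (40%) and 0 fell, against 21.3% and 18.6% of all genes (median log2 fold change 0.09). They include Brd2, a bromodomain protein that binds acetylated histones, at 68.1 ± 3.83 RPKM in Sfpq libraries and 37.5 ± 4.78 RPKM in Luc libraries (SD, n = 3 each; log2 fold change 0.86, limma adjusted p = 0.00045). Mllt6, a relative of the Dot1l partner Mllt10, had 10.3, 11 and 9.49 RPKM in the Sfpq libraries, against 6.59, 6.74 and 4.91 RPKM in the Luc libraries (log2 fold change 0.72, limma adjusted p = 0.00297). The count of 6 was 3 when Luc replicate 1, or Sfpq replicate 2 or 3, was left out.

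The list for RNA polymerase II itself held 12 genes that were tested, Polr2b to Polr2m, while the subunit Polr2a is not analysed here. By limma, 1 of the 12 rose (8.33%) and 0 fell, against 21.3% and 18.6% of all genes. At an unadjusted p under 0.05 the counts were also 1 and 0, against 26.9% and 22.3% of all genes. The median log2 fold change of the 12 was -0.02, with a range of -0.27 to 0.28. Polr2j had 89.9, 83.5 and 82.3 RPKM in the Sfpq libraries, against 70.8, 73.9 and 66.4 RPKM in the Luc libraries (log2 fold change 0.28, limma adjusted p = 0.0439). That call was lost without Luc replicate 1 or any 1 of the 3 Sfpq libraries (limma adjusted p between 0.110 and 0.120). Without Luc replicate 3 the count was 2 higher and 1 lower, against 30.9% and 22.5% of all genes in that fit.

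Integrator cuts nascent RNA and ends transcription of paused polymerase, and its list here held, besides the Ints genes, Nabp1, Nabp2 and Inip. Genes of this list were called in both directions, at shares near those of all genes. Of 17 tested, 4 rose (23.5%) and 4 fell (23.5%), against 21.3% and 18.6% of all genes. The median log2 fold change was 0.26. All that rose were Ints genes, whereas those that fell were Ints9, Ints10, Nabp1 and Nabp2. At an unadjusted p under 0.05, 7 were higher and 4 lower, against 26.9% and 22.3% of all genes. Ints3 rose to 24.7 ± 1.84 RPKM in Sfpq libraries, against 16.5 ± 0.446 RPKM in Luc libraries (SD, n = 3 each; log2 fold change 0.57, limma adjusted p = 0.00193). Ints9, part of the cleavage module, fell to 4.22 ± 0.445 RPKM in Sfpq libraries, against 7.07 ± 0.583 RPKM in Luc libraries (SD, n = 3 each; log2 fold change -0.68, limma adjusted p = 0.00189). Nabp1, a single-stranded DNA-binding partner of Ints3, had a log2 fold change of -0.71 (limma adjusted p = 0.0134), which without Sfpq replicate 1 was not called (limma adjusted p = 0.0579). The count of genes of this list that rose was 10 without Luc replicate 3 and 2 without Luc replicate 1 or Sfpq replicate 2. Over all genes, 30.9% were called higher without Luc replicate 3, more than with all libraries. The count of this list that fell was 2 without Sfpq replicate 1.

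Among kinases and phosphatases of the polymerase tail (CTD) and their partners, 7 of 16 rose (43.8%) and 2 fell (12.5%), against 21.3% and 18.6% of all genes, with a median log2 fold change of 0.01. The largest changes were in the kinases of the Mediator complex and in a CTD-binding protein. Cdk19 had 4.97, 6.24 and 5.6 RPKM in the Sfpq libraries, against 1.47, 1.51 and 2.25 RPKM in the Luc libraries (log2 fold change 1.46, SE 0.16, limma adjusted p = 0.000119). Its paralogue Cdk8 and the CTD-binding Rprd1b rose by log2 fold changes of 0.89 and 1.13 (limma adjusted p = 0.00148 and 0.000232). The count that fell was 1 when Luc replicate 1, or Sfpq replicate 1 or 2, was left out. It was 3 without Luc replicate 3, where 22.5% of all genes were called lower.

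**Figure D5:**
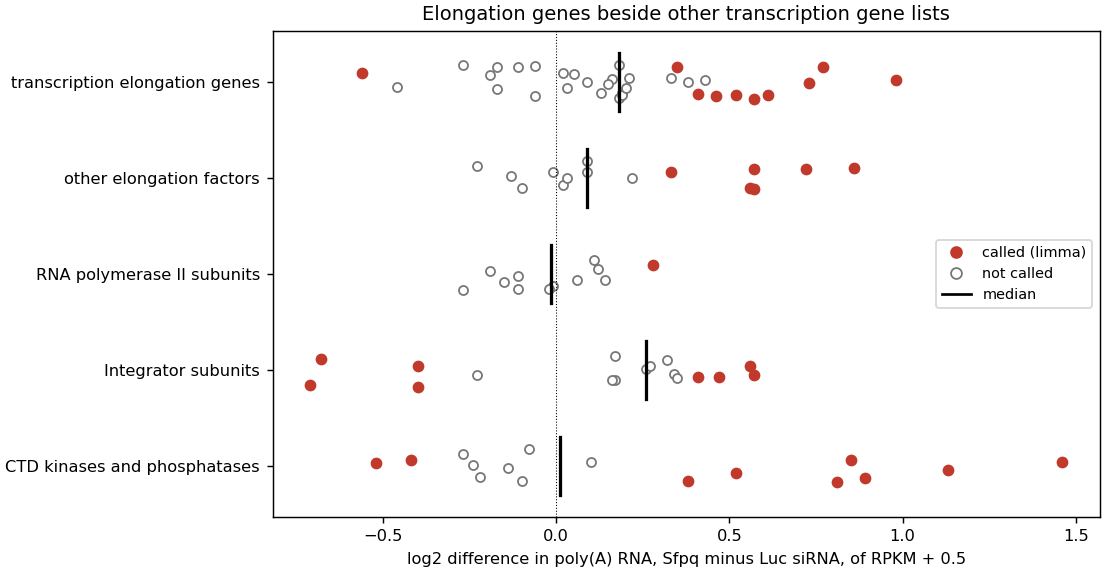
Log2 difference of RPKM + 0.5 in poly(A) RNA, Sfpq minus Luc siRNA, for the 34 tested elongation genes and 4 other gene lists; points are genes, filled where called by limma, spread vertically for visibility, and black lines are medians. Medians run from -0.02 for RNA polymerase II subunits to 0.26 for the Integrator list, which also holds Nabp1, Nabp2 and Inip.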

How the data were processed

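Poly(A)-selected and rRNA-depleted RNA was sequenced on the Ion Proton system, per the labels' protocols. Sample titles gave each library's group and number; for Sfpq replicate 2 of the poly(A) set the description has a different number. RNA polymerase II chromatin immunoprecipitation was not used here.

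Per the file headers, each library has its own deposited file of RPKM by RefSeq transcript. Alignment was to mm9 with TopHat2 2.0.10, per the submitters' processing notes. How RPKM was computed, including strand and reads with several matches, is not given in the sources used here, so values of genes with near-identical or overlapping copies are uncertain. Of 30978 rows per file, 30507 (98.5%) were named from a RefSeq gene table of GRCm38.p6. RPKM holds no read counts, so precision comes from replicates alone.

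The poly(A) comparison used limma 3.58.1 (R 4.3.3) after log2 transformation of RPKM + 0.5, using a trended prior, over all genes that averaged 0.5 RPKM or more, adjusted by the Benjamini-Hochberg method over all of them; a call is an adjusted p under 0.05. The step was tested on simulated data. The 2 rRNA-depleted libraries were described by log2 ratios, with 1.5-fold of RPKM + 0.5 as the limit. Promoter motifs were counted on both strands. Python 3.11.15, numpy 2.4.6, pandas 2.3.3 and matplotlib 3.10.9 were used.

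The elongation genes and other lists were chosen with earlier results of these data known. Every elongation gene is named, with Sfpq and the 3 largest called genes of each other list; a few genes are not reported here. Alternatives were other pseudocounts (0.1, 1) and filters (none, or 2 RPKM on average), quantile normalization, median-ratio scaling, a replicate block, limma without trend, averaging a gene's rows, and leaving out each library; the paralogue balance without each library and a minimum of 0.5 RPKM in each group were added after seeing the data. Deviations of same-numbered Sfpq and Luc libraries from their group means correlated at 0.327, -0.035 and 0.157, and those of unlike-numbered libraries at -0.277 to 0.166. With 3 libraries a group this cannot settle whether the libraries were paired. The main fit did not treat them as pairs. Over all genes it called 2502 higher and 2185 lower, against 2681 and 2309 with the replicate block.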

Additional observations from a re-analysis of the deposited data

How the results depend on the processing

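For each tested elongation gene 15 alternatives were tried. All kept the calls of Ccnt2, Larp7, Mllt1, Supt6, Nelfb, Nelfe, Cdk12 and Eaf1. That of Eaf2 was kept except at a minimum mean of 2 RPKM, which it misses. Eaf2 also misses the added minimum of 0.5 RPKM in each group. Alternatives with the main filter let it in only through the group where it was high, so its call there is no further support. The call of Rtf1 was lost in 3, each by leaving out a library. Over the 34 genes, 483 of the alternative results kept direction and side of the threshold, 11 crossed it upwards, 3 lost it and 12 changed sign. The sign changes were all in genes not called: with 1 library left out, log2 fold changes ran from -0.15 to 0.11 for Aff4, from -0.17 to 0.01 for Supt5, from -0.46 to 0.02 for Tcea1, from -0.03 to 0.08 for Nelfcd and from -0.03 to 0.13 for Iws1. Nelfcd was also at -0.03 with median-ratio scaling, and Iws1 at -0.01 with median-ratio scaling and -0.00 with quantile normalization. The cause was not tested. Setd2 was called with median-ratio scaling, quantile normalization and the replicate block (limma adjusted p = 0.0472, 0.0367 and 0.0420).

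Leaving out 1 library gave 8 to 12 elongation genes higher and 1 to 2 lower. Over all genes it gave 1546 (without Sfpq replicate 2) to 3621 (without Luc replicate 3) higher. It gave 1673 (without Sfpq replicate 3) to 2645 (without Luc replicate 3) lower. The other lists had 3 to 7 other elongation factors higher, 0 to 2 RNA polymerase II subunits higher and 0 to 1 lower. They also had 2 to 10 genes of the Integrator list higher and 2 to 4 lower, and 1 to 3 CTD genes lower. Of transcript rows, 1 to 4 were lower. The RNA polymerase II subunit Polr2j lost its call, for a count of 0, with median-ratio scaling, limma without trend and the replicate block. Other elongation factors had 1 lower with median-ratio scaling, Integrator had 2 lower without a filter, where more genes are tested, and 1 transcript row was lower at a minimum mean of 2 RPKM. With the replicate block 11 elongation genes were higher, with Setd2 and Mepce in addition, and 1 lower. Precision is limited by 3 libraries a group, and the absolute depth is unknown. The rRNA-depleted comparison has no replicate.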
